A study of Drosophila melanogaster with 4 samples.

Results

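The outermost 100 kb at the telomeric ends of 4 chromosome arms of Drosophila melanogaster was mapped here for histone H3 trimethylated at lysine 9 (H3K9me3). The stretches were positions 1 to 100000 of 2L, 3L and X and positions 27805054 to 27905053 of 3R, on FlyBase release 5 (per the file headers). They were divided by position alone into 400 consecutive windows of 1 kb, 100 for each arm, of the 97881 windows on these arms. The samples were wild-type Oregon-R embryos aged 14 to 16 h from population cages, fixed with 1.8% formaldehyde. Chromatin was precipitated with an H3K9me3 antibody from abcam and sequenced (ChIP-seq). The group comprised 2 ChIP libraries, and the labels name 1 input library for each of them. Whole embryos were used, so the lists average over all cell types. There was 1 genotype, 1 stage and no sample without the mark.

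Drosophila telomeres are not maintained by telomerase. Their ends carry arrays of the retrotransposons HeT-A, TART and TAHRE, followed towards the centromere by telomere-associated satellite repeats and then by genes. H3K9me3 is bound by heterochromatin protein 1 (HP1), which is also part of the cap that protects the chromosome end, and genes placed next to these ends can be silenced. An arm sequence in the assembly stops where its sequence stops. Distances below therefore run from the end of the sequence, and how far that lies from the end of the chromosome was not measured.

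The values are regions of significant enrichment, called clusters, as the authors deposited them, each with a start, an end and a score of unstated scale. The list of replicate 1 held 3395 clusters, that of replicate 2 held 3404 and a list for the whole series held 3941. Within the 4 telomeric stretches there were 8, 7 and 10 of them. The covered share of a window or stretch is the percentage of its bases that lie in clusters. The number of reads behind a cluster is unknown. Whether reads could be placed in the stretches without a cluster was not measured. The labels do not say whether the libraries came from separate embryo collections, so their spread may be technical.

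The mark was unevenly spread over the 4 ends, and each arm had its own pattern. X was marked from the first bases of its sequence to 18.7 kb. On 3L the outermost 52.4 kb held no cluster in either library, and a long marked domain followed, ending 79.4 kb in (replicate 1) or 78.2 kb in (replicate 2). On 2L a single short block, 21.0 kb from the end, was covered in both libraries. On 3R no base was covered in both. Of all bases covered in these stretches, 3L and X held 87.6% in replicate 1 and 94.8% in replicate 2.

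**Figure D1:**
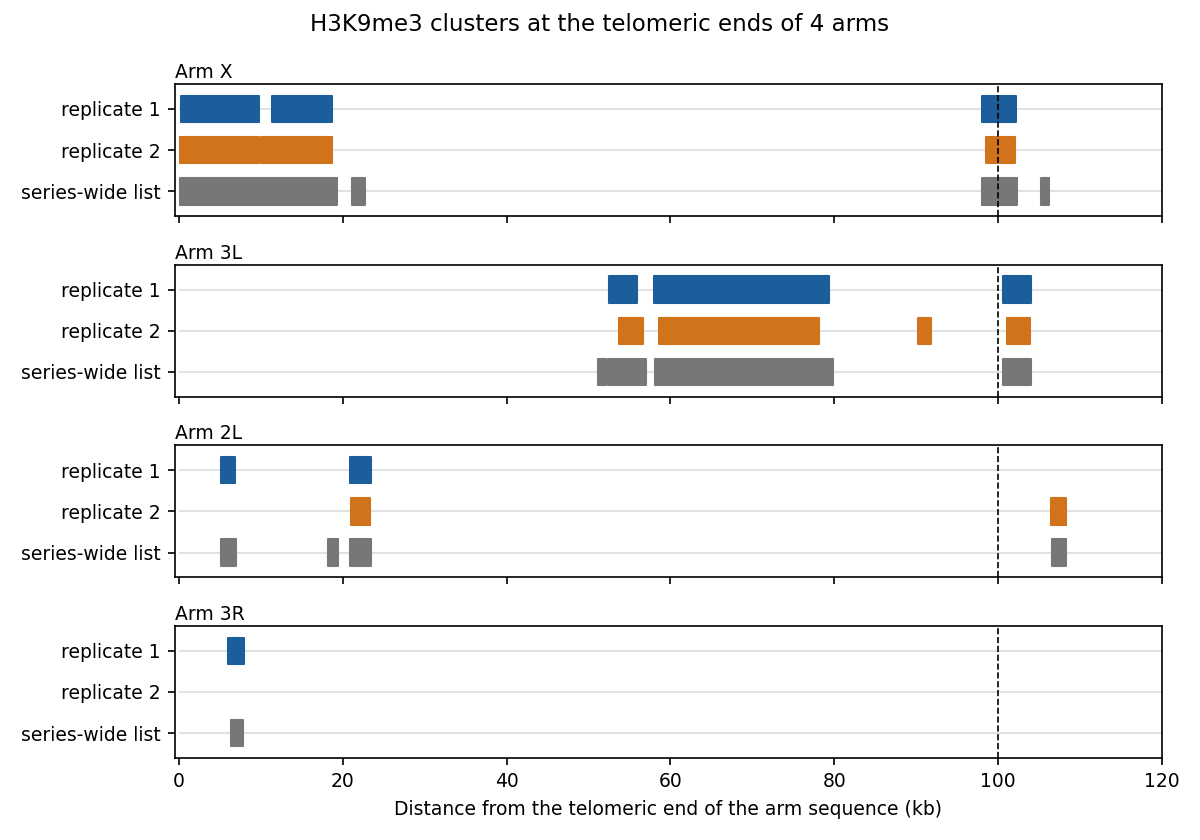
Clusters of both ChIP libraries and of the series-wide list (rows) against the distance from the telomeric end of each arm sequence in kb; bars are clusters and the dashed line marks 100 kb. X is marked at the very end, 3L from about 52 kb inwards, 2L in short blocks, and 3R in 1 short cluster that replicate 2 lacks. The gap of 196 bp between the outer X clusters of replicate 2 is too narrow to show at this scale.

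Windows were called marked where at least 50% of their bases were covered. In both libraries 43 of the 400 windows were marked, or 10.8%. Over all windows of these arms outside the centromere-proximal 1 Mb, 2.93% were marked in both libraries. On 3L there were 21 marked windows of 100, against 3.75% of that arm, and on X there were 20, against 5.12%. On 2L there were 2 of 100, against 2.08% of the arm, and on 3R 0 of 100, against 1.18%. The share of marked windows on 2L was thus near that of its arm. In single lists, 51 windows were marked in replicate 1 (background 3.73%) and 47 in replicate 2 (3.5%). The series-wide list marked 58 (5.19%). Marked windows were mostly covered throughout: 37 of the 400 were fully covered in both libraries. A further 12 windows were marked in 1 library only, 7 of them on 3L. In 342 windows neither library had a covered base. The share over all windows of these arms was not computed for full coverage, for marking in 1 library only or for no covered base. These counts are therefore not read as particular to the ends.

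The X end began with a pair of clusters. In replicate 1 they lay 248 to 9744 and 11278 to 18677 bases from the end, with scores of 2.08 and 2.18. In replicate 2 they lay 150 to 9747 and 9944 to 18669 bases from the end, with scores of 2.26 and 2.23. Both libraries thus placed the inner edge of this domain within 8 bp of each other. The interruption between the clusters was less sharply placed: it measured 1533 bp in replicate 1 but 196 bp in replicate 2. The series-wide list had none. With clusters no more than 3 kb apart joined, a rule chosen after the data were seen, the domain spanned 18.4 kb in replicate 1 and 18.5 kb in replicate 2. By that span it was number 3 of 458 and of 435 such domains on X outside the proximal 1 Mb. Without joining, its blocks covered in both libraries were number 5 and number 14 of 439 on X by length. In 10 kb steps from the end, X was covered to 95.8% ± 1.12 and then 80.3% ± 8.97 (SD, n = 2 each). The next 7 steps, from 20 to 90 kb, held no covered base in either library. A stretch of 79.4 kb without a cluster in either library followed the domain.

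A further X region lay across the inner limit of the 100 kb. In replicate 1 it was 1 cluster from 98093 to 102199 (score 1.55). In replicate 2 it was split into clusters from 98495 to 100181 (score 1.26) and from 100288 to 102111 (score 1.38). The last window inside the limit, 99001 to 100000, was fully covered in both libraries, and the first outside, 100001 to 101000, was covered to 100% and 89.4%. The 100 kb limit therefore cut through this region, and only its outer part is counted in the shares of the telomeric 100 kb.

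On 3L the marked domain lay inside the arm and not at its end. In 10 kb steps, the first 5 steps held no covered base in either library. The sixth was covered to 54.4% in replicate 1 and 43.6% in replicate 2, the seventh to 100% in both, and the eighth to 93.9% and 81.9%. The domain consisted of a shorter outer cluster and a long inner one. The outer cluster ran from 52444 to 55919 in replicate 1 and from 53744 to 56671 in replicate 2, with low scores of 0.903 and 1.03. The inner cluster ran from 58037 to 79391 in replicate 1 (21355 bp, score 2.00) and from 58573 to 78194 in replicate 2 (19622 bp, score 2.03). Gaps of 2117 bp and 1901 bp separated the inner from the outer cluster in replicates 1 and 2. The outer edge of the inner cluster differed between the libraries by 536 bp and its inner edge by 1197 bp.

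The inner 3L cluster was long for its arm. The 19622 bp covered in both libraries made it the sixth longest of 212 blocks of 3L outside the proximal 1 Mb, where the median was 2220.5 bp. All 5 longer blocks began at least 23.0 Mb from the telomeric end, within 1.48 Mb of the proximal end of the arm sequence. With clusters joined as on X, the 3L domain was number 7 of 218 in replicate 1 and 8 of 206 in replicate 2. Replicate 2 had a further short cluster at 90174 to 91808 (1635 bp, score 0.836), which had no counterpart in replicate 1 or the series-wide list. Just outside the 100 kb, a block from 101041 to 103942 was covered in both libraries, and the first window outside the limit was covered to 37.8% in replicate 1 and 0% in replicate 2.

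On 2L the block covered in both libraries ran from 20954 to 23349 (2396 bp). Its score was 1.28 in replicate 1 and 1.21 in replicate 2, and its edges differed by 81 bp and 52 bp. By length it was number 56 of 160 blocks of 2L outside the proximal 1 Mb, with a median of 2040 bp. Nearer the end, replicate 1 had a cluster from 5108 to 6794 (1687 bp) with a score of 1.46, higher than that of the shared block. It had no overlap in replicate 2, but the series-wide list had it at 5056 to 6886. Inwards of the shared block, 76.6 kb up to the limit held no cluster in either library.

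On 3R the single cluster of replicate 1 lay 6004 to 7974 bases from the end, at positions 27897080 to 27899050. It was 1971 bp long with a score of 0.917. Replicate 2 had no cluster in the 100 kb, and the series-wide list had one inside that of replicate 1, at positions 27897266 to 27898679 (score 0.604). The other 92.0 kb towards the limit held none. Presence of the mark at the 3R end thus rested on 1 library.

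For orientation, the outermost protein-coding genes of each arm were read from a RefSeq gene table of another assembly release, by their order alone. On 2L the first is l(2)gl, a regulator of cell polarity and a tumour suppressor. On 3L it is mthl8, of the methuselah-like receptors, followed by CG43149 and by Lsp1gamma, which encodes a larval serum protein. On X the first is SteXh:CG42398, followed by CG17636. On 3R the first is Map205, for a microtubule-associated protein, followed by mod and krz, of which krz encodes an arrestin. No gene was placed on a window, since the files and the table are on different releases, so no cluster is assigned to a gene.

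The stretches were compared with the remainder of their own arms, leaving out the centromere-proximal 1 Mb. On 3L the telomeric 100 kb was covered to 24.8% in replicate 1 and 24.2% in replicate 2, against 4.34% and 4.18% further in. The excess was 20.2 percentage points ± 0.346 (SD, n = 2), a ratio of 5.75. On X the values were 18.8% and 19.8% against 6.60% and 6.16%, an excess of 12.9 points ± 1.04 and a ratio of 3.03. Both excesses were many times the spread between the libraries. That spread describes how far the 2 libraries repeat each other, not how much stretches of an arm vary. On 2L the telomeric values of 4.22% and 2.40% lay on either side of the 2.76% and 2.58% further in by library, and the difference of 0.638 points ± 1.16 was smaller than its SD. On 3R the values were 1.97% and 0% against 1.58% and 1.44%, a difference of -0.525 points ± 1.29. Neither 2L nor 3R differed from its arm beyond the spread of the libraries, and the sign differed between the libraries on both. An exact two-sided sign-flip permutation test over 2 libraries cannot give a p below 0.5. This exact test gave p = 0.5 for 3L and X and p = 1 for 2L and 3R, so no difference could pass a threshold.

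**Figure D2:**
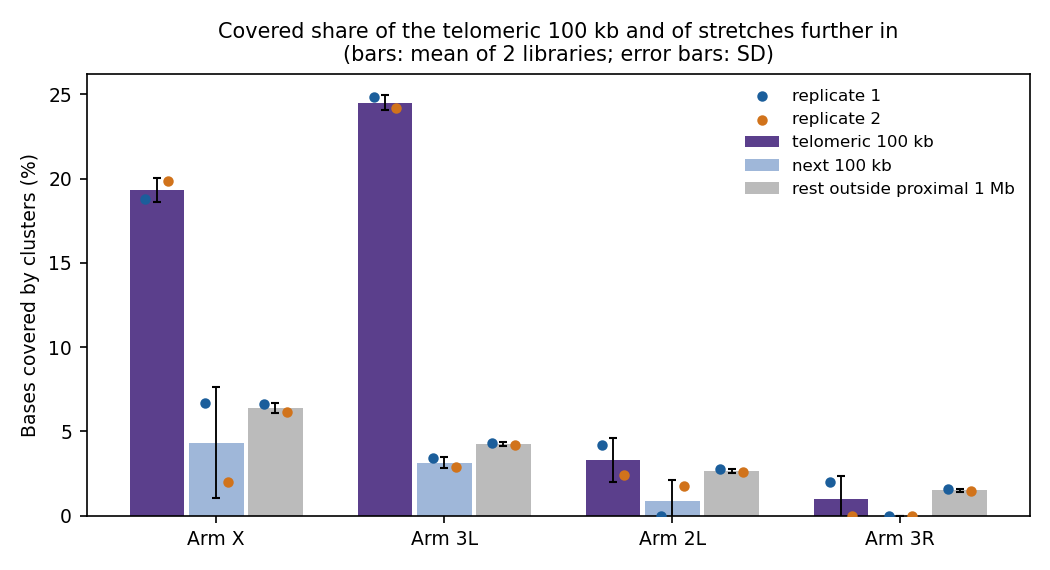
Percentage of bases covered by clusters (vertical axis) in the telomeric 100 kb, the next 100 kb and the rest of each arm outside the proximal 1 Mb; bars are means of 2 libraries, error bars SD and points the libraries. The telomeric bars of X and 3L stand above those further in, while on 2L and 3R the libraries lie on both sides of the rest of the arm.

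Between the ends, the order of covered shares was 3L, X, 2L and 3R in both libraries. The 3L end exceeded the X end by 6.03 points in replicate 1 and 4.36 points in replicate 2. It exceeded the 2L end by 21.2 points ± 0.830, and the X end exceeded the 2L end by 16.0 points ± 2.01 (SD, n = 2 each). The 2L end exceeded the 3R end by 2.25 points and 2.40 points. Each of these 4 differences had the same sign in 2 of 2 libraries, with p = 0.5 in the exact two-sided sign-flip test, the smallest possible value. The order of 3L and X depends on how far in the stretch reaches: over the outer 50 kb, X was covered to 35.2% and 3L to 0%. Only 3L and X had a 10 kb step with a mean share above 90%, and these lay at different depths, from 60 to 70 kb on 3L and from 0 to 10 kb on X.

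The telomeric 100 kb was also ranked among all consecutive 100 kb stretches of its arm outside the proximal 1 Mb, counted from the end. Unless a list is named, ranks are by the mean share of the 2 libraries. On 3L it ranked 6 of 235, and the 5 stretches above it all began 23.0 Mb or more from the end, next to the proximal window. The median of the other 3L stretches was 1.63%. On X it ranked 9 of 214 against a median of 5.18%, and the nearest stretch with a higher share began 5.2 Mb from the end. On 2L it ranked 64 of 220, with 88 of the other stretches at 0%. On 3R it ranked 95 of 269, with 143 others at 0%, so that a rank in the upper part of the arm required only 1 cluster in 1 library. In replicates 1 and 2 the rank was 52 and 75 on 2L, and 76 and 98 on 3R. In the series-wide list it was 59 on 2L and 137 on 3R. On 3L it was 6 in every list.

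**Figure D3:**
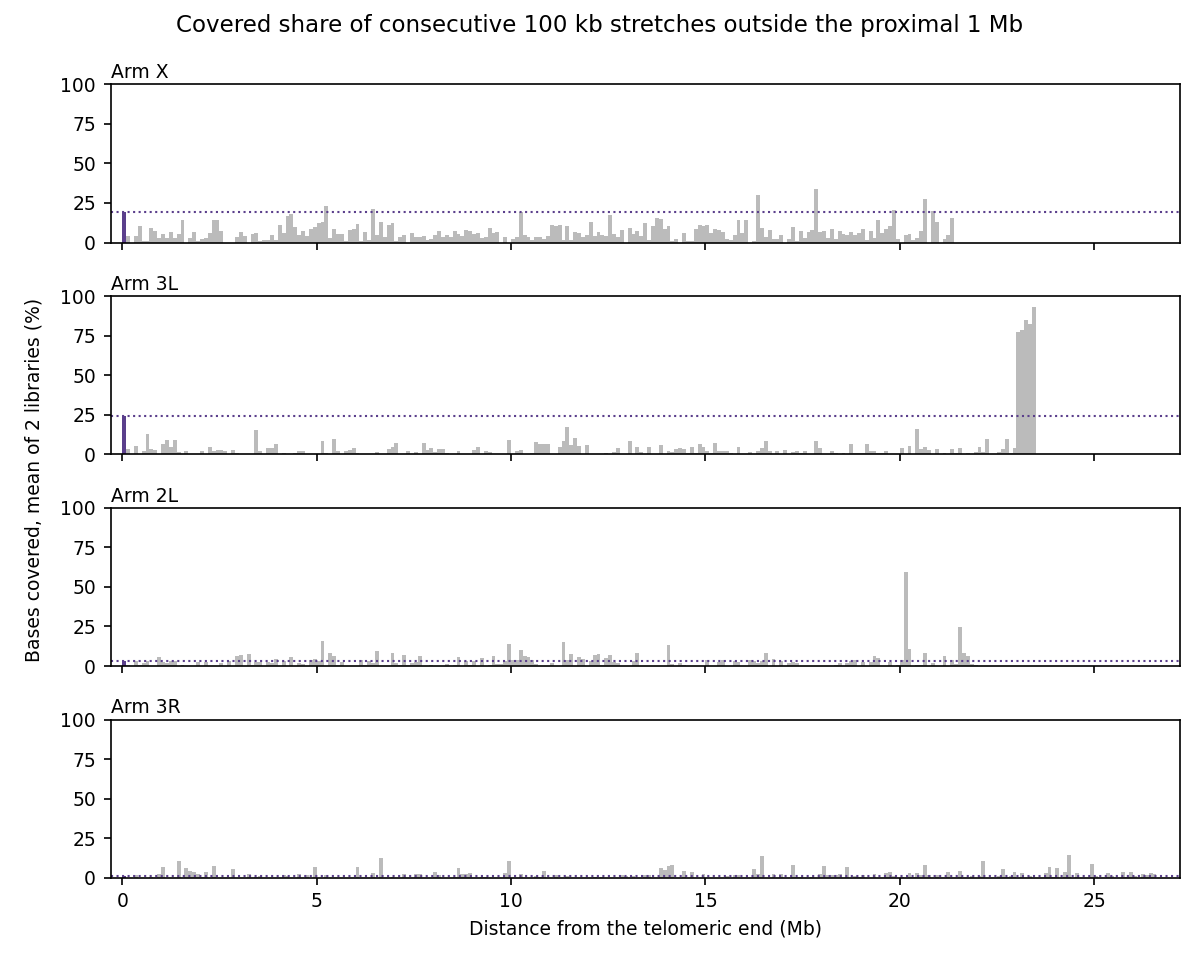
Percentage of bases covered (mean of 2 libraries) in consecutive 100 kb stretches of each arm against their distance from the telomeric end in Mb, without the centromere-proximal 1 Mb; the telomeric stretch is purple and the dotted line gives its level. On 3L only the 5 stretches at the proximal side exceed the telomeric one, and on X 8 stretches spread along the arm do.

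The next 100 kb inwards were covered far less on both well-marked arms. On 3L they were covered to 3.40% in replicate 1 and 2.90% in replicate 2, a difference of 21.4 points ± 0.107 (SD, n = 2). On X they were covered to 6.66% and 2.01%, a difference of 15.0 points ± 4.01. These X shares include the inner part of the region cut by the 100 kb limit, and in replicate 2 they consist of it alone. On 2L, replicate 1 had 0% and replicate 2 had 1.77% in the next 100 kb, and on 3R both had 0%.

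The authors' scores of the long X and 3L clusters were above most others of their arms. Among the 1188 clusters of replicate 1 on these 4 arms outside the proximal 1 Mb, 92.3% and 93.4% scored lower than the outer pair of X, and 91.2% scored lower than the long 3L cluster. Among the 1124 of replicate 2 the percentages were 92.7% and 92.3% for X and 89.7% for 3L. The clusters of 2L and 3R spread more widely, from 32.7% for the 3R cluster to 75.9% for the outer 2L cluster of replicate 1. Over the 7 clusters of each library with their midpoint in the 4 stretches, the median score was 1.36 ± 0.143 (SD, n = 2), beside 1.05 ± 0.0087 elsewhere on these arms. Their median length was 3202 bp ± 387, beside 2068 bp ± 25.5. Of these clusters only the pair at the X end and the long 3L cluster reached the median score of their whole list, 1.96 in replicate 1 and 1.99 in replicate 2. The highest scores in the 4 stretches were 2.18 in replicate 1 and 2.26 in replicate 2, both at the X end.

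**Figure D4:**
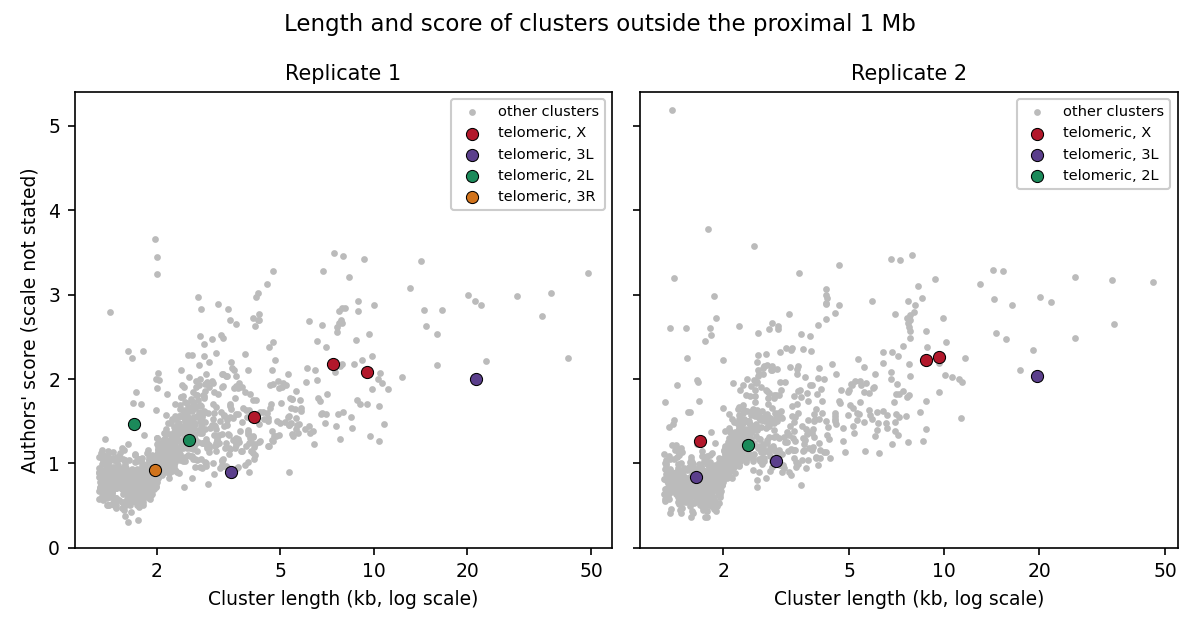
Authors' score (vertical axis, scale not stated) against cluster length in kb (log scale) for clusters of 2L, 3L, X and 3R outside the proximal 1 Mb, in each library; coloured points touch the telomeric 100 kb. The X pair and the long 3L cluster have scores of 2.00 or more, and all other telomeric clusters have lower scores and are shorter than 5 kb.

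The libraries were compared base by base within the 4 stretches. Of 53645 bases covered in either, 42589 were covered in both, a Jaccard index of 0.794. Further in on the same arms it was 0.681. The index was 0.909 on X, 0.801 on 3L, 0.568 on 2L and 0 on 3R, against 0.658, 0.755, 0.649 and 0.634 further in on these arms. In clusters, 6 of 8 of replicate 1 overlapped replicate 2 by at least 1 bp (75.0%, exact Clopper-Pearson 95% interval 34.9 to 96.8%). Of those of replicate 2, 6 of 7 overlapped replicate 1 (85.7%, 42.1 to 99.6%). The intervals cover counting error only. The matching percentages over all clusters of these arms were not computed, so these counts are not read as particular to the ends. The clusters found in 1 library alone were the outer one of 2L and that of 3R in replicate 1 and that of 3L at 90174 to 91808 in replicate 2. All 3 were between 1635 and 1971 bp long.

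The series-wide list covered 27.5% of the 3L stretch, 22.9% of X, 5.59% of 2L and 1.41% of 3R. Further in, outside the proximal 1 Mb, it covered 5.61% of 3L, 9.20% of X, 4.10% of 2L and 2.38% of 3R. It contained all bases that both libraries covered in these stretches. They made up 74.2% of its 57403 bases there, while 15.4% were covered in 1 library and 10.4% lay outside both. It had 5 marked windows that neither library had, 2 on 3L, 2 on X and 1 on 2L. Over these arms outside the proximal 1 Mb it marked 5.19% of windows, against 3.73% in replicate 1 and 3.5% in replicate 2. The share marked in that list alone was not computed there. On X it added a cluster at 21058 to 22748 (score 0.533) just inwards of the end domain. On 2L it added one at 18230 to 19403 (score 0.582), and on 3L one at 51097 to 52154 with a higher score, 1.65, directly outside the domain. The lengths of these last clusters, 1174 bp on 2L and 1058 bp on 3L, were below 1301 bp, the shortest cluster of either library. The added X cluster was 1691 bp long. Whether length bears on their absence from the libraries was not tested. The series-wide list is named as the set of replicates and adds no independent evidence.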

How the data were processed

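The submitters' processing notes name Bowtie 0.12.7, and the file headers give FlyBase release 5 as the build. The authors deposited 1 list of enriched regions per ChIP library and 1 for the series, with a start and an end position and a score per region; for the caller, its threshold, read filters and the treatment of repeats: not given in the sources used here. The depth per library is unknown, and no input values were used here. The rest was computed in Python 3.11.15 with numpy 2.4.6, scipy 1.17.1 and matplotlib 3.10.9, and checked on 40 simulated lists with known answers. Arm lengths were taken from the headers; unsequenced gaps were not measured. SDs are over 2 libraries. Clusters were assigned by midpoint for median scores and by any overlap otherwise. Alternatives were a score limit, joining, other extents, windows, calls and overlaps, single libraries and the series-wide list. Every block covered in both libraries is named. The windows, tests and naming rule were chosen with earlier results of these data known.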

Additional observations from a re-analysis of the deposited data

How the results depend on the processing

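Of 133 alternative values, 86 stayed within the spread of the libraries or, for counts, within 1.5 times. Some of the 86 were fixed in advance, because with 2 libraries each single value lies within the SD of their mean. Leaving out a replicate could thus not move a mean share, a mean difference or the median score beyond the spread. For the differences it could only turn the sign. The tally is therefore no measure of robustness for these values. The excess of the telomeric 100 kb kept its sign on X under all alternatives and on 3L under all but the outer 50 kb, where it was -4.35 points, since the 3L domain lies further in. On 2L and 3R the sign was not settled. On 2L it turned to -0.724 points with scores at or above the list's median, -0.580 with a stretch of 200 kb and -2.17 against the whole rest of the arm, and was 3.95 with 50 kb and 2.42 against the next 100 kb. Leaving out a replicate gave -0.181 to 1.46 points on 2L and -1.44 to 0.389 on 3R, where 50 kb gave 0.463 and the next 100 kb 0.986. The excess on 3L was 18.6 points with the score limit, 21.9 in the series-wide list, 9.56 with 200 kb, 17.0 against the whole rest and 21.4 against the next 100 kb. On X it was 16.6 with the score limit, 28.8 with 50 kb, 5.43 with 200 kb and 15.0 against the next 100 kb.

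Covered shares with the score limit were 20.5% on 3L, 17.6% on X and 0% on 2L. In the series-wide list they were 27.5%, 22.9% and 5.59%. With 50 kb they were 0%, 35.2% and 6.61%, and with 200 kb they were 13.8% on 3L and 11.8% on X. A score limit can only lower these shares, and the extents change what is counted. Marked windows on 2L spanned 0 kb with the score limit, 5 kb in the series-wide list, and 4 kb with any covered base or with windows of 2 kb. On 3L none were marked in the outer 50 kb, at 0 kb, and on 3R the series-wide list marked 2 kb. Without 1 replicate they spanned 2 to 4 kb on 2L and 0 to 2 kb on 3R. The marked window nearest to the end began 21 kb in on 2L (5 kb in the series-wide list, 5 to 21 kb without a replicate), 54 kb in on 3L (51 kb, 52 to 54 kb) and at 0 kb on X (1 kb when 90% coverage was required). On 3R no window was marked in both, so there was no distance to compare. The Jaccard index was 0.920 with the score limit, 0.787 with 50 kb and 0.725 with 200 kb. The median score was 1.20 in the series-wide list. For the remaining shifts the cause was not tested. No paired analysis was possible because the input libraries, which share replicate numbers with the ChIP libraries, have no list here.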

Other observations

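The same domains were also described in steps of 20 kb, chosen after the data were seen. The ranks of these steps restate the domains and are no separate support. The outermost 20 kb of X was covered to 84.5% in replicate 1 and 91.6% in replicate 2, the highest mean of the 1071 such stretches of X outside the proximal 1 Mb. On 3L the stretch from 60 to 80 kb was covered to 97.0% and 91.0% and ranked 8 of 1177. The outermost 20 kb of 3L was at 0% in both libraries. That of 2L was covered to 8.44% and 0%, and that of 3R to 9.86% and 0%. The median 20 kb stretch was at 0% on all 4 arms.

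The empty part of the 3R end reached far beyond the 100 kb. From the cluster of replicate 1 inwards, no cluster of either library occurred for 345 kb, and none of the series-wide list for 332 kb. On 2L the corresponding empty stretch ended at 106.5 kb, where replicate 2 had a cluster with a score of 0.438, among the lowest on these arms (0.623% of the clusters scored lower). In the series-wide list, a cluster of 1001 bp on X at 105227 to 106227 had a score of 2.32. That was higher than the score of the end domain in that list (2.12). Neither library had a cluster there, but the shortest cluster was 1301 bp in each library and 1001 bp in the series-wide list. Whether this length difference bears on its absence was not tested.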
